A study of Mus musculus with 12 samples.

Results

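In glomeruli of 12 mice, 10 immediate early genes were examined. They were chosen by name as Fos, Fosb, Jun, Junb, Egr1, Atf3, Ier2, Ier3, Nr4a1 and Dusp1. All 10 are among the 14096 genes the authors listed. The mice were male C57BL/6J animals lacking endothelial nitric oxide synthase (eNOS-/-), so the controls carry the deletion too, and there were 3 mice in each of 4 groups. Con_DMSO mice received citrate buffer and then 5% DMSO vehicle, and Con_ATG mice received citrate buffer and then arctigenin (ATG), a lignan from the burdock fruit, at 40 mg/kg per day. DM_DMSO and DM_ATG mice were made diabetic at 8 weeks of age with streptozotocin (STZ, a toxin for pancreatic beta cells) given on 5 days at 50 mg/kg per day, and received vehicle or ATG in the same way. Gavage began 10 weeks after induction and lasted 8 weeks. The paper used this deletion because loss of eNOS had been reported to worsen diabetic kidney disease in mice. There was no wild-type library.

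Immediate early genes are transcribed within minutes of a stimulus, without a need for new protein synthesis, because the factors that switch them on (CREB, SRF with its ternary complex partners, and AP-1 itself) are already present and are activated by phosphorylation. Growth factors, stretch, calcium entry and cellular stress all reach them through MAP kinases, and their mRNAs are short-lived, so their levels follow events of the last hour. In the glomerulus they are known from mesangial and podocyte injury, and they are also known to be induced while tissue is being removed and digested with warm enzymes. The label of each library describes such a preparation, with prewarmed enzyme buffer, mechanical shearing and sorting of single cells by a fluorescent protein, whereas the study's methods speak of RNA taken from glomeruli and name no sorting. The time from death to lysis is not given in the sources used here, so its part in the values below was not tested.

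The values are log2 of reads times 1 factor per library, so a difference of 1 is a doubling, and they are not divided by gene length. Between 23.6 and 29.8 M (mega) reads per mouse were recovered on the listed genes, and even Atf3, the least abundant of the 10, had 148 to 2773 reads. Read sampling was therefore small beside the spread between mice. Podocyte and endothelial markers were high in every library (Nphs1, a slit diaphragm protein, at 14.65 to 16.52 and Pecam1, an endothelial adhesion molecule, at 12.94 to 14.56), as the glomerular label requires. Nos3, the gene deleted in these mice, was listed at 10.07 to 11.40, and a sum over the gene does not show which exons the reads came from. Distal nephron markers were high as well (Umod, the uromodulin of the thick ascending limb, at 14.75 to 18.13), so RNA of tubule cells was present. So were proximal tubule markers, and their mean log2 value ranged from 12.34 to 13.13 in Con_DMSO, 13.33 to 13.96 in Con_ATG, 10.53 to 11.68 in DM_DMSO and 11.14 to 12.03 in DM_ATG mice. The first part of each library's title is found in 1 group only, so a batch it may name cannot be told apart from the group. Mouse 3 of both nondiabetic groups has a title of its own form, without a number, and results are given without these 2 mice where they change.

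Promoters of the members show what letters these genes share just upstream of their start. RefSeq's GRCm38.p6 table held a promoter (250 bases before to 50 after the start) for 8 of the 10, all but Egr1 and Ier2. Those of Junb, Fos and Dusp1 are printed because these genes varied together from mouse to mouse, that of Nr4a1 because this gene followed another order, and that of Ier3 because it holds none of the motif. Each is the 150 bases before the start, 5′ to 3′ on the gene's own strand, and capitals mark TGACG, the core of the cAMP response element to which CREB binds, on either strand (CGTCA on the other). The windows are Junb on chr8:84978749-84978898 (minus strand), Fos on chr12:85473740-85473889 (plus), Nr4a1 on chr15:101266696-101266845 (plus), Dusp1 on chr17:26508473-26508622 (minus) and Ier3 on chr17:35821563-35821712 (plus).
Junb: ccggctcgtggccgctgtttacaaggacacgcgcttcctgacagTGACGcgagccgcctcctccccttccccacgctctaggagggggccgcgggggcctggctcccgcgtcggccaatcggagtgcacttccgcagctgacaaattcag
Fos: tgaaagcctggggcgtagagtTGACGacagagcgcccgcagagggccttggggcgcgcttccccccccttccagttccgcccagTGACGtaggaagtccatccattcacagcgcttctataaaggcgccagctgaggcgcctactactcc
Nr4a1: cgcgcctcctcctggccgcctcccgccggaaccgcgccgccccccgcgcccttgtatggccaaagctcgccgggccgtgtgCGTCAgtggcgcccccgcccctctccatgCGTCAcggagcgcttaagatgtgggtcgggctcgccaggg
Dusp1: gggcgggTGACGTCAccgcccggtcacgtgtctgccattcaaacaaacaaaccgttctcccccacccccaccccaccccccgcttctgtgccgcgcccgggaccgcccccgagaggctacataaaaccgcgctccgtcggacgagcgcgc
Ier3: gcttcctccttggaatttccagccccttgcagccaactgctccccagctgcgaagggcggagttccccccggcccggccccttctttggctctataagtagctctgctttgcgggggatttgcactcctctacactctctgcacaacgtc

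In the whole 300-base windows, TGACG was found in 6 of the 8 members with a promoter (Fos, Fosb, Junb, Atf3, Nr4a1 and Dusp1), against 20.8% of the 32851 promoters in the table. The full palindrome TGACGTCA was found in Dusp1, at positions -143 to -136 from its start, and in 1.79% of all promoters. It contains the core on both strands. TATAAA, searched on the gene's strand, was in Fos (positions -33 to -28) and at the start of Junb, and in 8.32% of all promoters. The AP-1 element TGANTCA, the EGR element GCGTGGGCG and the CArG box bound by SRF were in none of the 8 windows, against 7.81%, 0.612% and 1.63% of all promoters. These matches describe letters in a window and do not locate binding sites. Sequence outside the windows, and the promoters of Egr1 and Ier2, were not searched, so these genes may hold the elements elsewhere.

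The level of each gene was compared per kilobase of transcript, as the mean of 12 mice. Dusp1, a phosphatase that switches MAP kinases off, stood highest at 12.15 (log2 per kb), followed by the orphan nuclear receptor Nr4a1 at 11.94, Fos at 11.85, Jun at 11.79 and Ier3, a regulator of cell survival, at 11.72. These 5 stood at the 95th to 97th percentile of listed genes per kilobase. Junb stood at 11.18, Ier2, a nuclear protein of the early response, at 10.30 and Egr1, a zinc finger activator, at 10.22. Fosb at 8.86 and Atf3 at 8.84 were lowest, at the 62nd percentile. Of the 9 steps from one gene to the next in this order, 2 exceeded the SD of the difference over the mice. They were Junb over Ier2 (0.89 ± 0.29, SD, n = 12, higher in 12 of 12 mice) and Egr1 over Fosb (1.36 ± 0.56, SD, n = 12, higher in 11 of 12). The other neighbours did not differ beyond that spread, though Ier3 was above Junb in 11 of 12 mice (0.54 ± 0.65, SD, n = 12).

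Fos, which pairs with Jun proteins to form AP-1, lies on chromosome 12 from 85473901 to 85477270 (mm10). Its log2 values were 13.47, 13.49 and 14.59 in mice 1 to 3 of Con_DMSO, 14.31, 12.26 and 11.50 in Con_ATG, 12.55, 13.01 and 11.29 in DM_DMSO and 12.63, 12.85 and 13.04 in DM_ATG. The ATG-treated nondiabetic mice thus spanned a 7.02-fold range within 1 group, wider than the distance between any pair of group means, while the ATG-treated diabetic mice lay within 1.33-fold of each other. Fosb, its paralog (chromosome 7, 19302696 to 19310045), had 11.36, 11.37 and 12.71 in Con_DMSO, 12.10, 9.95 and 8.92 in Con_ATG, 10.38, 10.59 and 8.79 in DM_DMSO and 11.84, 10.71 and 10.55 in DM_ATG. As for Fos, mouse 3 was high in Con_DMSO and low in Con_ATG and DM_DMSO.

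The Jun partners had a smaller spread between mice. Junb (chromosome 8, 84976909 to 84978748) had values of 12.56, 12.41 and 13.28 in Con_DMSO, 13.08, 11.68 and 11.32 in Con_ATG, 11.72, 11.99 and 10.86 in DM_DMSO and 11.83, 11.89 and 12.16 in DM_ATG. As for Fos, mouse 3 was the highest in Con_DMSO and DM_ATG and the lowest in Con_ATG and DM_DMSO. Jun (chromosome 4, 95049036 to 95052222) ranged from 13.53 to 14.26 in Con_DMSO, 12.40 to 14.05 in Con_ATG, 13.14 to 13.85 in DM_DMSO and 13.32 to 13.51 in DM_ATG. Jun overlapped between diabetic and nondiabetic mice under either treatment.

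Egr1 (chromosome 18, 34861207 to 34864956) had 12.70, 12.57 and 13.65 in Con_DMSO, 13.40, 11.04 and 10.96 in Con_ATG, 11.06, 11.65 and 10.12 in DM_DMSO and 11.44, 11.66 and 11.79 in DM_ATG. Each vehicle-treated diabetic mouse was below each vehicle-treated nondiabetic mouse, and mouse 1 of Con_ATG stood far above its 2 group mates. Atf3, a stress-induced factor of the CREB family (chromosome 1, 191170297 to 191183333), had 10.28, 10.30 and 11.57 in Con_DMSO, 11.06, 8.43 and 7.56 in Con_ATG, 9.93, 10.45 and 8.28 in DM_DMSO and 10.65, 9.37 and 9.99 in DM_ATG. Its range in Con_ATG was 11.3-fold. Ier2 (chromosome 8, 84661331 to 84662852) ranged from 11.05 to 11.94, 10.21 to 11.65, 10.40 to 10.93 and 10.76 to 10.99 in the 4 groups in the same order.

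**Figure D1:**
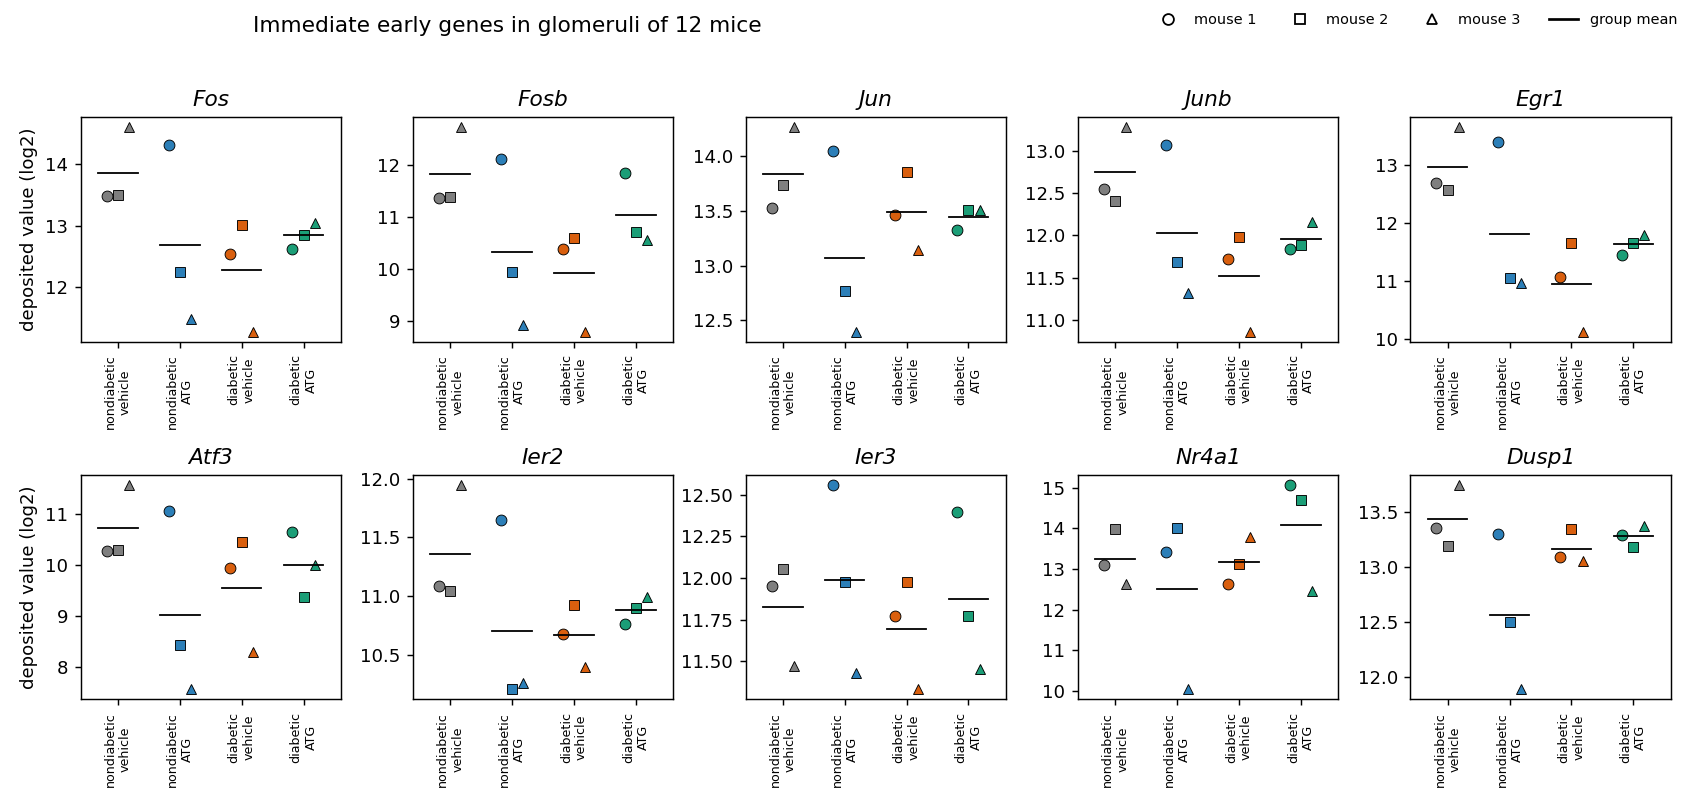
Deposited log2 value (y axis, a separate scale for each gene) of the 10 genes in each mouse, by group, with symbols for mice 1 to 3 and a bar for the group mean (n = 3 mice). Mouse 1 of the ATG-treated nondiabetic group is the highest of its group for 9 of the 10 genes and mouse 3 the lowest for 9.

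The other 3 members are Nr4a1, Ier3 and Dusp1, of which Nr4a1 and Ier3 followed another order of mice. Nr4a1, an orphan nuclear receptor induced by the same signals (chromosome 15, 101266846 to 101274794), had 13.09, 14.00 and 12.62 in Con_DMSO, 13.43, 14.02 and 10.04 in Con_ATG, 12.64, 13.12 and 13.79 in DM_DMSO and 15.07, 14.70 and 12.46 in DM_ATG. It was high in mice 1 and 2 of DM_ATG, where Fos, Junb and Egr1 had their lower values, and its range was 15.8-fold in Con_ATG and 6.12-fold in DM_ATG. Ier3 (chromosome 17, 35821713 to 35822911) had 11.95, 12.05 and 11.47 in Con_DMSO, 12.56, 11.98 and 11.43 in Con_ATG, 11.77, 11.98 and 11.33 in DM_DMSO and 12.40, 11.77 and 11.45 in DM_ATG, and mouse 3 was the lowest in each of the 4 groups. The numbers name mice and do not tie those of different groups to each other. Dusp1 (chromosome 17, 26505591 to 26508472) had 13.36, 13.19 and 13.75 in Con_DMSO, 13.30, 12.50 and 11.89 in Con_ATG, 13.09, 13.34 and 13.05 in DM_DMSO and 13.29, 13.19 and 13.37 in DM_ATG. Outside Con_ATG its mice lay close together, within 1.47-fold in each group.

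The spread between mice of one group was large for all 10 genes. The SD over the 4 group means (8 degrees of freedom) had a median of 0.73 log2 units over the 10 genes, against 0.15 over all listed genes. Nr4a1 had an SD of 1.36, the largest of the 14096 genes. Atf3 ranked 6th with an SD of 1.18, Fosb 8th with 1.08, Fos 15th with 0.92 and Egr1 22nd with 0.85. Junb (0.60), Jun (0.51), Ier2 (0.50), Ier3 (0.43) and Dusp1 (0.39) followed at ranks 133, 318, 343, 713 and 1051. The spread differed between groups as well. Each of the 10 genes had its largest SD in Con_ATG, where the median SD was 1.16, against 0.55 in Con_DMSO, 0.58 in DM_DMSO and 0.19 in DM_ATG. For most of the genes this rests on mouse 1 of Con_ATG. Over its 2 group mates, set apart after the data had been seen, the median SD was 0.41 and 2 of the 10 genes had their largest SD in that group. Nr4a1 is 1 of them, with an SD of 2.81 there, as its low value was that of mouse 3 (10.04, against 13.43 and 14.02). Over all genes the median SD was 0.16, 0.089, 0.14 and 0.099 in the same order of groups, and 10, 10, 6 and 4 of the 10 genes were above the 90th percentile of their group. Without mouse 1 of Con_ATG, the median SD of the members was 0.48, at a median percentile of 95.9 in place of 99.5.

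**Figure D2:**
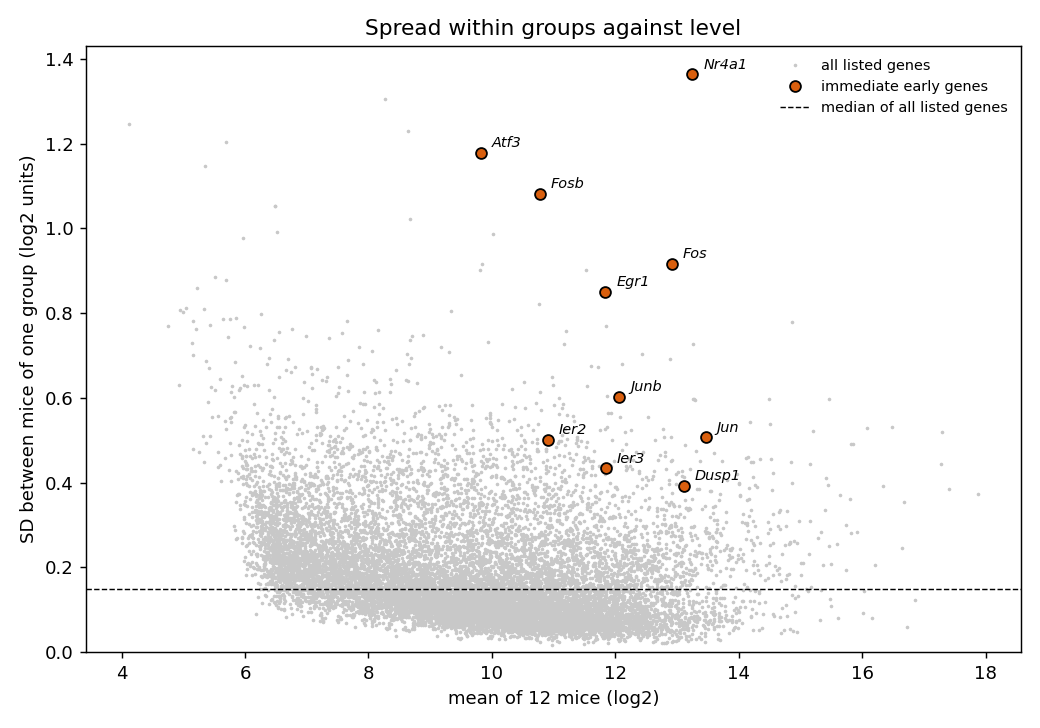
SD between mice of one group (y axis, log2 units, pooled over 4 groups of 3 mice) against the mean of 12 mice (x axis, log2) for the 14096 listed genes in grey, with the 10 immediate early genes in orange and the median of all genes (0.15) as a dashed line. All 10 lie above that line, and Nr4a1 is the highest point of all genes.

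Within groups, most members varied together from mouse to mouse. Deviations from the group means were taken for each gene over the 12 mice, which share library, preparation and depth between genes, and Pearson's r between pairs of members is given as a description. Its median over all pairs was 0.88. For the 8 genes other than Nr4a1 and Ier3, set apart after the values were seen, r ranged from 0.83 to 0.99, with the highest value between Fos and Junb. Ier3 had an r of 0.31 to 0.70 with those 8 genes, and Nr4a1 of 0.03 to 0.39. Between Nr4a1 and Ier3 it was 0.66. Averaged over the 10 genes and scaled by each gene's SD, mouse 1 of Con_ATG deviated by 1.64 SD from its group mean (10 of 10 genes above it) and mouse 3 by -1.30 (0 of 10 above). In DM_DMSO, mouse 3 deviated by -0.71 (1 of 10 above), in Con_DMSO mouse 3 by 0.56 (8 of 10 above), and in DM_ATG no mouse by more than 0.21. Without mouse 1 of Con_ATG the median r was 0.71.

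**Figure D3:**
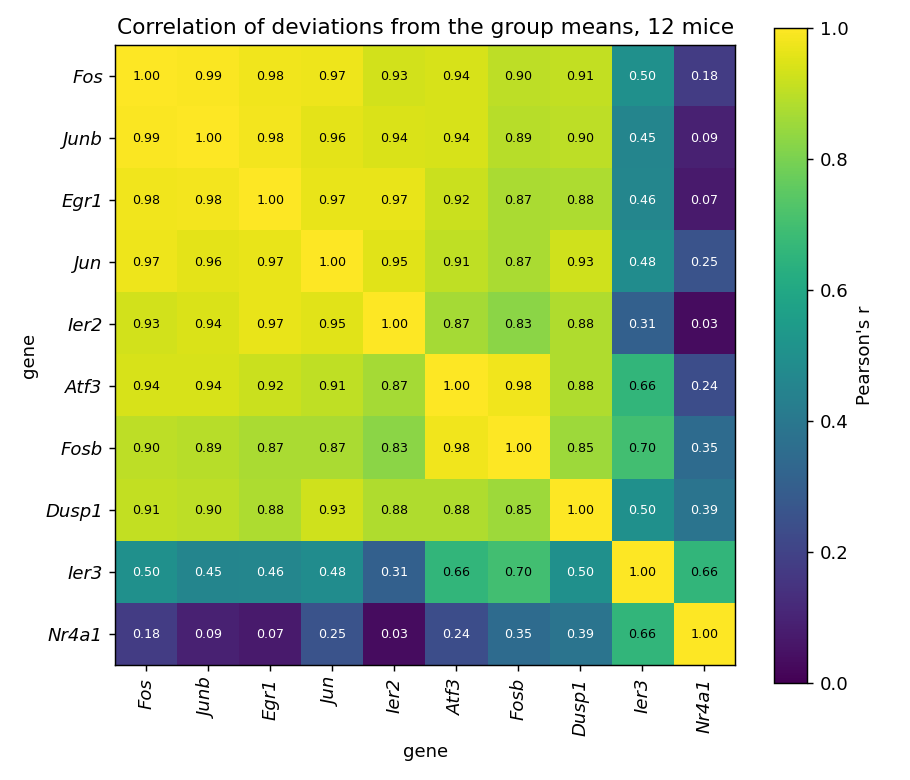
Pearson's r between the 10 genes (both axes) of their deviations from the group means over 12 mice, on a colour scale from 0 to 1. A set of 8 genes forms a block with r of 0.83 or more, and Ier3 and Nr4a1 stand outside it.

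Proximal tubule markers moved with the members. The mean deviation of the 12 tubule markers had an r of 0.67 with that of the members over the 12 mice, and mouse 1 of Con_ATG had the highest tubule mean of all (13.96) and mouse 3 of DM_DMSO the lowest (10.53). Within Con_ATG, mice 2 and 3 had nearly equal tubule means (13.33 and 13.33) and Fos values of 12.26 and 11.50. With the tubule mean as a covariate, added after the data had been seen, the median SD of the members was 0.55 (median percentile 98.8) and the median r between them 0.81. The mean deviation of the 10 distal nephron markers, from other tubule segments, had an r of 0.23 with the members. Those of podocyte, glomerular endothelial, mesangial and leukocyte markers had an r of -0.09, 0.22, 0.29 and 0.004, and that of erythrocyte markers -0.12. That of the 12 heat shock genes known to respond to dissociation (Hspa1a, Hspb1 and others) had an r of 0.62. The part of proximal tubule cells and of preparation in these values was not tested further, and in bulk RNA fewer cells of a type and less RNA per cell cannot be told apart.

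**Figure D4:**
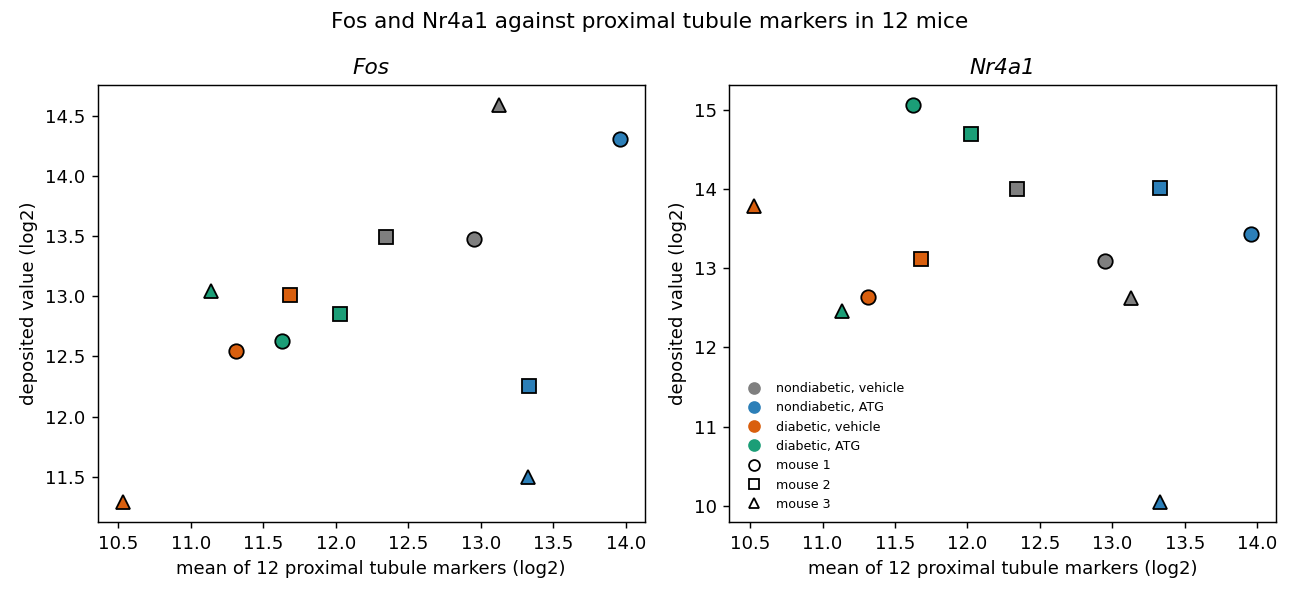
Deposited log2 value (y axis) of Fos and Nr4a1 against the mean log2 value of 12 proximal tubule markers (x axis), 1 point per mouse, with colours for the 4 groups and symbols for mice 1 to 3. The lowest Fos value (11.29) is at the lowest tubule mean (10.53) and the highest (14.59) at a tubule mean of 13.13, and mice 2 and 3 of the ATG-treated nondiabetic group (12.26 and 11.50) lie low at a tubule mean of 13.33.

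The genes whose deviations most resembled the mean of the members over the 12 mice were sought among all other listed genes. The highest r was that of Jund, the third Jun protein, at 0.98, followed by acetylcholinesterase (Ache, 0.95), Zfp36, which destabilises AU-rich mRNAs (0.94), the medium-chain acyl-CoA synthetase Acsm3 (0.94), Ppp1r15a, a stress-induced subunit of protein phosphatase 1 (0.93), Apold1 (0.92), Gm9926 (0.92), Serpina1d (0.92), Kin (0.92) and Dmgdh, a mitochondrial enzyme of choline breakdown (0.91). Jund, Zfp36 and Ppp1r15a are themselves in a list of 35 other immediate early genes, of which 31 are listed. Yipf4 (-0.94), Mrpl48 (-0.93), Cyb5r4 (-0.93), Mlh3 (-0.91) and 1810030O07Rik (-0.91) lay at the opposite end, with SDs between mice of 0.05 to 0.12. In the list of other immediate early genes 16 of 31 had an r above 0.7, against 402 of all 14096 genes (members included), and the median r was 0.70. The nuclear receptors Nr4a2 (0.37) and Nr4a3 (0.41), relatives of Nr4a1, were among those below. Of 25 genes upstream (MAP kinases, SRF, CREB and their partners), 0 had an r above 0.7, and the median was -0.07.

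Diabetes was compared first in vehicle-treated mice (DM_DMSO against Con_DMSO), with limma on the log2 values of all 12 mice and adjustment over all 14096 genes. Egr1 fell by 2.03 (SE 0.59, adjusted p = 0.0377 by limma), from 12.97 ± 0.59 (SD, n = 3) to 10.95 ± 0.77 (SD, n = 3). It was the 1 member of 10 that passed an adjusted p of 0.05, where 18.9% of all genes passed. The other 9 also had lower means in diabetic mice, and the median log2 fold change of the 10 was -0.92, against 0.01 over all genes. Fosb (-1.89, SE 0.76), Fos (-1.57, SE 0.64) and Junb (-1.23, SE 0.42) missed the threshold (limma adjusted p of 0.0999, 0.107 and 0.0636). Atf3 (-1.16), Ier2 (-0.69), Jun (-0.35), Dusp1 (-0.27), Ier3 (-0.13) and Nr4a1 (-0.06) had limma adjusted p of 0.187 or more. For 5 genes (Fos, Fosb, Junb, Egr1 and Ier2) all diabetic mice lay below all nondiabetic mice, against 18.7% of all genes.

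Tubule marker levels moved with this comparison. The tubule markers fell in the same mice (10 of 12 called lower, median -1.74), and with their mean as a covariate the log2 fold changes of all 10 members turned positive, from 0.11 for Egr1 (SE 0.80) to 1.52 for Atf3 (SE 1.20). None was called in that fit, in which limma called 0.0% of all genes, so the absence of a call there is not particular to Egr1 or the members. The call of Egr1 was also lost in 8 of 12 fits that left out 1 mouse. The mice left out there were each of the 3 Con_DMSO mice, mice 1 and 3 of DM_DMSO and each of the 3 DM_ATG mice. In those 8 fits the log2 fold change was -2.23 to -1.62 (limma adjusted p up to 0.126). The call was lost too without the 2 unnumbered mice (-1.69, limma adjusted p = 0.0974). Without mouse 1 of Con_ATG, which is in neither group but enters the shared spread, 4 members were called lower (Fos, Fosb, Junb and Egr1), and 7.39% of all genes were called lower in that fit.

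In ATG-treated mice (DM_ATG against Con_ATG), diabetes left the members without a call. None of the 10 passed by limma, where 46.7% of all genes did, and 7 had higher and 3 lower means (median 0.28, against 0.05 over all genes). Dusp1 came nearest, at 13.28 ± 0.093 (SD, n = 3) against 12.56 ± 0.71 (SD, n = 3), a log2 fold change of 0.72 (SE 0.28, limma adjusted p = 0.0538), and it was the 1 member with an unadjusted p under 0.05. Nr4a1 had a log2 fold change of 1.58 (SE 0.95) and Atf3 of 0.99 (SE 0.82). For no member did the groups fail to overlap, against 56.1% of all genes. Without mouse 1 of Con_ATG, the high one, 3 members were called higher by limma: Jun (0.86), Atf3 (2.01) and Dusp1 (1.09), and 20.2% of all genes were called higher in that fit. The tubule markers fell here too (11 of 12 called lower, median -2.05).

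ATG was then compared with vehicle in diabetic mice. None of the 10 members passed by limma, as none of the 14096 genes did (0.0%, lowest adjusted p 0.248, 636 genes with an unadjusted p under 0.05), and no member had an unadjusted p under 0.05. With ATG 9 of them had higher means, with a median of 0.44 against -0.01 over all genes. The intervals were wide, and they rest on a spread shared by all 4 groups, not on that of the diabetic mice alone. The median SD of the members was 1.16 in Con_ATG, against 0.58 in DM_DMSO and 0.19 in DM_ATG. That of Fosb (1.11) ran from -0.55 to 2.78, that of Egr1 (0.68) from -0.63 to 1.99, that of Nr4a1 (0.89) from -1.21 to 2.99 and that of Dusp1 (0.12) from -0.49 to 0.73 (95% confidence). The groups overlapped for all 10 members, where 10.2% of all genes did not overlap.

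In nondiabetic mice, 9 of the 10 members had lower means with ATG than with vehicle (median -0.82, against -0.04 over all genes), and Ier3 had a higher one (0.16). None was called by limma, where 5.22% of all genes were. Dusp1 was nearest, at 12.56 ± 0.71 (SD, n = 3) with ATG and 13.43 ± 0.28 (SD, n = 3) with vehicle, a log2 fold change of -0.87 (SE 0.28, limma adjusted p = 0.0827), and the 1 member with an unadjusted p under 0.05. Atf3 had -1.70 (SE 0.82), Fosb -1.49 (SE 0.76), Egr1 -1.17 (SE 0.59) and Fos -1.16 (SE 0.64). No member's groups failed to overlap, against 34.4% of all genes, and mouse 1 of Con_ATG lay within the vehicle range for 9 of the 10. Without that mouse 2 members were called lower by limma, Jun (-1.26) and Dusp1 (-1.24), and 1.4% of all genes were called lower in that fit. Of the cell markers, 6 of 10 endothelial and 4 of 9 mesangial ones were called lower in this comparison (medians -0.64 and -0.86), and 0 of 10 podocyte ones were called (median -0.61). Proximal tubule markers had a median of 0.78 with 0 of 12 called, and the tubule mean of every Con_ATG mouse (13.33 to 13.96) was above that of every Con_DMSO mouse (12.34 to 13.13), opposite in sign to 9 of the 10 members. The part of these cells was not tested.

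The ATG effects in diabetic and nondiabetic mice were compared by their difference. It was positive for all 10 members (median 1.40, against 0.01 over all genes), and none was called by limma, against 0.546% of all genes. Fosb (2.60, SE 1.07), Egr1 (1.85, SE 0.84) and Dusp1 (0.99, SE 0.39) had an unadjusted p under 0.05, with limma adjusted p of 0.344, 0.387 and 0.332. limma-voom on the recovered reads also gave 0 member calls in each of these last 4 comparisons, where it called 46.7% of all genes for diabetes with ATG, 0.0% and 5.21% for ATG in diabetic and nondiabetic mice, and 0.631% for the difference. For Ier3 the difference was 0.02 and turned negative under another scaling (-0.01). Each group enters 2 of the 4 comparisons above, so they share mice and are not independent of each other. Most members varied together within the same mice, so a count of their signs is not a count of independent observations.

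**Figure D5:**
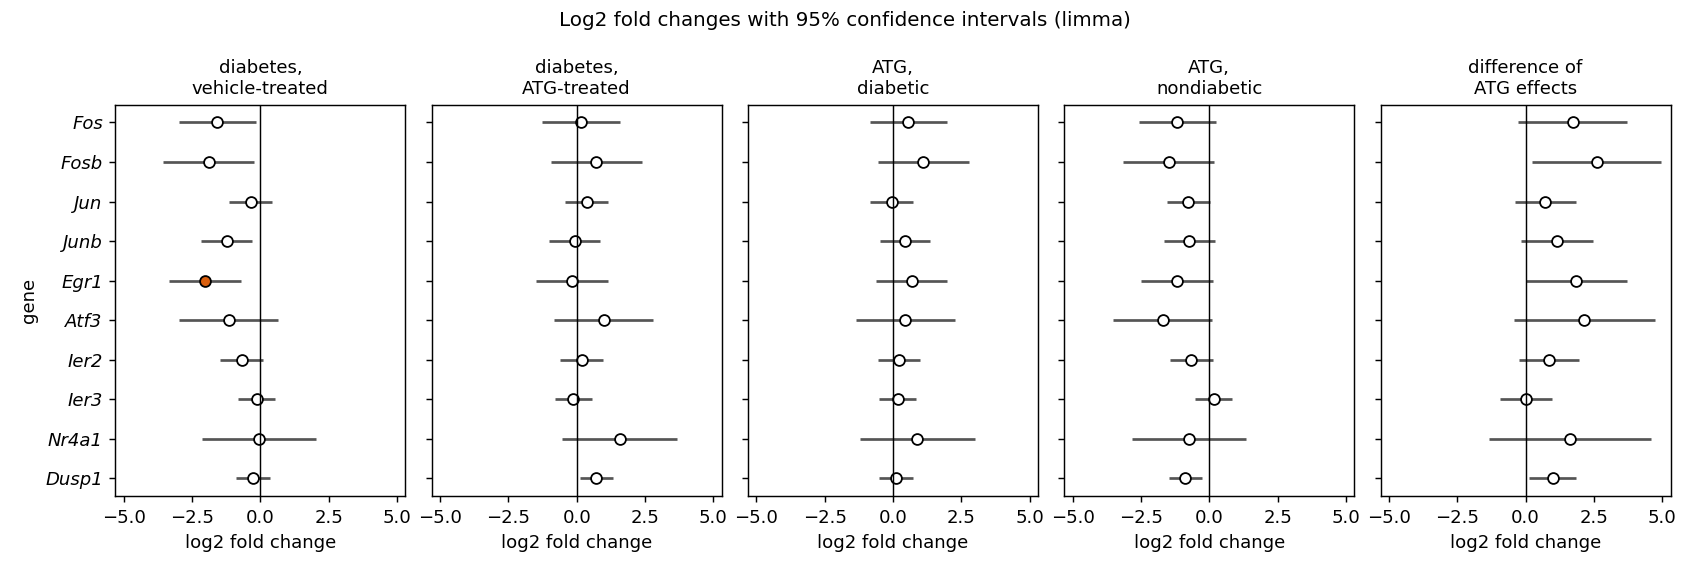
Log2 fold changes (x axis) of the 10 genes (y axis) in 5 limma contrasts, with 95% confidence intervals as lines, from the spread shared by all 4 groups. A filled point marks a limma adjusted p under 0.05 over all genes. The only filled point is Egr1 for diabetes in vehicle-treated mice (-2.03), and that call depends on the mice and the covariate in the fit.

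The list of 31 other immediate early genes was compared in the same way. For diabetes in vehicle-treated mice, 5 of 31 were called higher by limma and 1 lower, with a median of 0.22, where 18.9% of all genes were called in either direction. Dusp6, a phosphatase of ERK, rose by 0.39, the growth regulator Myc by 0.87, the stress gene Gadd45b by 1.10 and Arc by 0.96, and Errfi1, an inhibitor of EGF receptors, fell by 0.93. In ATG-treated mice 18 of 31 were called higher and 1 lower, with a median of 0.86, where 46.7% of all genes were called. Glomerular cell markers moved with this comparison, as 10 of 10 endothelial (median 1.05), 5 of 9 mesangial and 4 of 10 podocyte markers were called higher and 9 of 10 distal nephron markers lower, and their part was not tested. Among the 18 genes, Sgk1, a kinase that regulates sodium channels, rose by 1.48, the small GTPase Rhob by 1.29, the matricellular gene Ctgf by 1.72 and Klf10 by 0.72, and Errfi1 fell by 1.25. ATG gave 0 calls in diabetic mice and 2 lower calls in nondiabetic mice, Klf4 (-0.96) and Ctgf (-1.11), where 5.22% of all genes were called. For the difference of the ATG effects there was none, with a median of 0.74.

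Of 25 genes upstream, 4 were called higher in diabetic vehicle-treated mice, the transcription factor Srf (0.70), the CREB relative Crem (0.81), Hras (0.32) and the ERK gene Mapk3 (0.27). In ATG-treated diabetic mice 8 were higher, among them Mapk3 (0.55), Elk3 (0.71), Srf (0.79) and Mkl2 (0.38), and Atf2 was lower (-0.25). Of all genes, 10.2% and 25.9% were called higher in these comparisons, and 18.9% and 46.7% in either direction. The other 3 comparisons gave no call in this list. The medians of the list were 0.03 and 0.10 for diabetes with vehicle and with ATG. Of the 12 heat shock genes none was called in vehicle-treated mice (median -0.42), and in ATG-treated mice the mitochondrial chaperones Hspe1 (-0.79) and Hspd1 (-0.74) were lower and Dnaja1 (0.42) higher. Of the other marker lists for diabetes, 0 of 10 podocyte markers were called in either direction in vehicle-treated mice. There 4 of 10 endothelial, 3 of 9 leukocyte and 3 of 5 erythrocyte markers were called higher, against 10.2% of all genes. Of mesangial and distal nephron markers, 2 of 9 and 4 of 10 were called lower, against 8.63% of all genes. In ATG-treated mice the mesangial calls were in the other direction. With ATG, 4 of 9 leukocyte and 1 of 5 erythrocyte markers were called higher, against 25.9% of all genes.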

How the data were processed

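Glomerular poly-A RNA of 12 mice (3 per group, grouped by the labels' description) was sequenced by the authors, who deposited 1 log2 value per gene and mouse. Per the labels, the submitters' processing notes name mm10 and limma. The aligner, counter and normalization are not given in the sources used here. On the linear scale, 83.5% to 84.1% of values under 2000 reads were whole multiples (within 0.02 reads) of 1 step per library.

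The members and gene lists were chosen with earlier results of these data known. In the leukocyte list, Ms4a1 was matched through a synonym to Ms4a2, a different gene. The counts, means and r of the 9 leukocyte markers include Ms4a2. limma (version 3.58.1, R 4.3.3) was run on the log2 values with a mean-variance trend, two-sided, in a single fit of the 12 mice, with p adjusted over 14096 genes by Benjamini-Hochberg. A gene was called at an adjusted p under 0.05. SDs, r and level comparisons are descriptions. Mice are separate animals, and numbers shared between groups were not taken to pair them. Genes named are all members, the 10 most and 5 least similar genes by r, and up to 4 called genes per list and direction. Nr4a2, Nr4a3, Nos3 and the markers Nphs1, Pecam1 and Umod were named after their values were seen. Alternatives were median-ratio scaling, limma-voom on recovered reads, 2 filters on low values, no trend, only the groups compared, the replicate block, mice left out and the tubule covariate, and, after seeing the data, a robust prior variance and the covariate for the spread. Motifs were searched on both strands (TATAAA on one). The test was checked on simulated data. Python 3.11.15 with matplotlib 3.10.9 made the figures.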

Additional observations from a re-analysis of the deposited data

How the results depend on the processing

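Across the alternatives that leave out no single mouse, 464 of the members' log2 fold changes kept their direction and side of the threshold, 24 changed sign and 2 lost a call with the sign kept. The call of Egr1 for diabetes with vehicle was lost in 3 of 10 such alternatives, these 2 and the tubule covariate, where the sign changed too. Same-numbered mice did not all deviate together (r of -0.03 and -0.26 for diabetes with vehicle, 0.18 and 0.04 for diabetes with ATG, -0.05 and 0.25 for ATG in nondiabetic mice, and 0.31, 0.05 and 0.34 for ATG in diabetic mice). With the replicate block, 0 members were called lower for diabetes with vehicle (Egr1 -1.90, limma adjusted p = 0.127), where 4.24% of all genes were called lower, and Junb for diabetes with ATG turned to 0.0084. Without the 2 unnumbered mice the count was 0 too, where 5.28% of all genes were called lower, and the values that changed sign were Fos (-0.44) and Ier2 (-0.042) for diabetes with ATG, Nr4a1 (0.18) for ATG in nondiabetic mice and Ier3 (-0.087) for the difference of the ATG effects. Median-ratio scaling turned Ier3 for that difference to -0.012.

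When the mean of the tubule markers entered as covariate, 0 members and 0 of all 14096 genes were called for diabetes with vehicle, and the members' values were Fos 0.68, Fosb 0.80, Jun 0.76, Junb 0.25, Egr1 0.11, Atf3 1.52, Ier2 0.42, Ier3 0.56, Nr4a1 0.49 and Dusp1 0.44. Those that changed sign elsewhere were Junb (1.69), Egr1 (2.37) and Ier3 (0.70) for diabetes with ATG, Fos (-0.022), Atf3 (-0.24), Ier2 (-0.069) and Dusp1 (-0.065) for ATG in diabetic mice, and Ier3 (-0.14) for ATG in nondiabetic mice. The covariate differs between the groups, so its adjustment and the diabetes effect cannot be told apart.

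With each mouse left out in turn, 0 to 4 members were called lower for diabetes with vehicle (2.31% to 11.6% of all genes), 0 to 3 higher for diabetes with ATG (19.2% to 29.6%) and 0 to 2 lower for ATG in nondiabetic mice (0.426% to 17.5%). The median SD of the members ranged from 0.48 to 0.78. Values that changed sign ranged, for diabetes with vehicle, from -0.31 to 0.049 (Ier3) and -0.36 to 0.32 (Nr4a1). For diabetes with ATG they ranged from -0.44 to 0.97 (Fos), -0.42 to 0.46 (Junb), -0.59 to 0.63 (Egr1), -0.067 to 0.65 (Ier2) and -0.40 to 0.17 (Ier3). For ATG in diabetic mice the ranges were -0.21 to 0.14 (Jun), -0.19 to 0.90 (Atf3) and -0.082 to 0.39 (Ier3). For ATG in nondiabetic mice they were -0.12 to 0.44 (Ier3) and -1.50 to 0.49 (Nr4a1), and for the difference of the ATG effects -0.26 to 0.30 (Ier3). The cause of these changes was not tested.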
